A study of Mus musculus with 267 samples.

Results

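Irf4, Batf and Batf3 encode 3 transcription factors that can act together on DNA, and the chromatin around the 3 genes was followed in mouse bone marrow–derived macrophages (BMDMs) before and after interleukin-4 (IL-4). The genes were taken as a set by name, as 3 of the 21951 protein-coding genes of the GENCODE vM21 annotation (mm10) used here. A region was counted as belonging to one of them when its centre lay within 50 kb of the gene's start. All 3 genes lie on the plus strand: Irf4 (ENSMUSG00000021356.10) at chr13:30749226-30766976, Batf (ENSMUSG00000034266.6) at chr12:85686669-85709087 and Batf3 (ENSMUSG00000026630.9) at chr1:191097847-191108945. In the table of the C57 strain the rule found 43 of 67742 accessible regions, 11 around Irf4, 12 around Batf and 20 around Batf3. The tables of the other strains held 36 of 54022 such regions in BALB, 40 of 68932 in NOD, 37 of 60175 in PWK and 28 of 54755 in SPRET. In all, 23 of 29462 regions were found in all 5 strains, 5 around Irf4, 6 around Batf and 12 around Batf3. The C57 time-course table held 54 of 77955, the table of EGR2 sites over time held 25 of 30675, and the table of sites for the Egr2 genotypes 9 of 4677.

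IRF4 is an interferon regulatory factor that binds DNA weakly on its own and is recruited by partners, PU.1 at composite ETS-IRF elements and BATF-JUN dimers at composite AP-1-IRF elements. BATF and BATF3 are small basic leucine zipper proteins without a transactivation domain of their own, which pair with JUN proteins, and BATF3 is best known for its role in the dendritic cells that cross-present antigen. IL-4 acts through its receptor and JAK kinases on STAT6, and IRF4 is known to be required for parts of the alternatively activated program that IL-4 gives macrophages. Acetylation of histone H3 at lysine 27 (H3K27ac) marks active enhancers and promoters, trimethylation of lysine 4 (H3K4me3) marks promoters and dimethylation of the same residue (H3K4me2) marks both. RNA polymerase II (Pol II) is found over starts, gene bodies and active enhancers.

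The cells were BMDMs from female mice of 8 to 12 weeks, grown for 7 days with M-CSF, and either left untreated (basal) or given IL-4 at 20 ng/ml for 1, 6 or 24 h. Basal and 24 h cells came from 5 inbred strains, SPRET/EiJ (SPRET), PWK/PhJ (PWK), NOD/ShiLtJ (NOD), C57BL/6J (C57) and BALB/cJ (BALB), and the 1 and 6 h cells from C57 only. Chromatin immunoprecipitation with sequencing (ChIP-seq) was done for H3K27ac, H3K4me2, H3K4me3 and Pol II, and for the factors STAT6, EGR2, PPARγ, PU.1 and C/EBPβ. At basal and 24 h each strain had 2 libraries of each histone mark and 2 to 4 of Pol II. At 1 and 6 h there were 2 of H3K27ac a time and 1 and 2 of Pol II. A second pair of genotypes, Egr2flfl and LyzMCreEgr2flfl, was compared without IL-4 and after 24 h. Both carry floxed Egr2 alleles, LyzM-Cre drives the recombination in myeloid cells, and no group with Cre but without floxed alleles was analysed here. The labels do not tie replicates to animals, so the p-values measure the spread between libraries called replicates.

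The sequences of 5 elements and 2 promoters are shown as examples, and no test used them. They do not stand for all regions that gained H3K27ac. Each of the first 5 is the stretch of 200 bases around the centre of a STAT6 peak of the C57 24 h list, read on the plus strand of mm10, and each lies inside an element described below. Capitals mark matches on either strand to short motifs: a STAT6 motif (TTC and GAA with 4 bases between), the AP-1 site TGANTCA, a C/EBP motif (TTGC and AA with 2 bases between), an EGR motif (GTGGG between 2 G, each set off by 1 free base), the PU.1 motif GAGGAAGT and the interferon-stimulated response element. Where one sequence held several matches, they shared no base.
Irf4 46.7 kb upstream, chr13:30702401-30702600, with a STAT6 motif: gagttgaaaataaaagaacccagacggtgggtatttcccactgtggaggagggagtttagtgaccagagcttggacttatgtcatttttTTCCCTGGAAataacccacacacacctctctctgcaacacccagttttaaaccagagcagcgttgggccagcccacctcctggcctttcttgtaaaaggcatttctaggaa
Batf 12.6 kb upstream, chr12:85673930-85674129, with a STAT6 motif: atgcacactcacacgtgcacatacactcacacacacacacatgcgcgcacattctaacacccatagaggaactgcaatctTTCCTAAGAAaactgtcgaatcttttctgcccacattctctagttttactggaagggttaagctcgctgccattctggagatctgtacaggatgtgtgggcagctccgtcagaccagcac
Batf3 11 kb upstream, chr1:191086710-191086909, with a C/EBP and a STAT6 motif: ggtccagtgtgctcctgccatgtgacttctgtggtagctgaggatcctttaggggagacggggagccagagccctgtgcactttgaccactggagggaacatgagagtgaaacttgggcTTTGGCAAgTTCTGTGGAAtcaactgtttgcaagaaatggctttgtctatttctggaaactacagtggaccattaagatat
Batf3 4.1 kb upstream, chr1:191093648-191093847, with an EGR motif: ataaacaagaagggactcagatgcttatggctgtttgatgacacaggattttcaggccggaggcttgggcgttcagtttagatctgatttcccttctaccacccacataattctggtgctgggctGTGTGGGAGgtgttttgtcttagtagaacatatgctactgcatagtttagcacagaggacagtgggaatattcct
Batf3 26 kb downstream, chr1:191123790-191123989, with a STAT6, a C/EBP and an AP-1 motif: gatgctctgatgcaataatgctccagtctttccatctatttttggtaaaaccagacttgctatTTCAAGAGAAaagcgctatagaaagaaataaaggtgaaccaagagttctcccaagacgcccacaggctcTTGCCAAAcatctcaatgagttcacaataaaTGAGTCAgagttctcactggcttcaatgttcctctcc

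The promoters come from RefSeq (GRCm38.p6) and run from 250 bases before to 50 after the RefSeq start, which for Batf3 lies 567 bp downstream of the GENCODE start. The Irf4 and Batf3 promoters are printed because both starts gained H3K27ac and Pol II, and only that of Batf3 held a motif of the set, with the EGR motif present 2 times. The Batf promoter held none.
Irf4 promoter, chr13:30748983-30749282: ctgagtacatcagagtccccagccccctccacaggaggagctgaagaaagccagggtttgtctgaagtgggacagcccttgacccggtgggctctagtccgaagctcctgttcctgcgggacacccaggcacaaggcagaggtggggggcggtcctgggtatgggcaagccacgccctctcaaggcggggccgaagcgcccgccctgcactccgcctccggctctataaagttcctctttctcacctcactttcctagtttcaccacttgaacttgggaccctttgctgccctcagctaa
Batf3 promoter, chr1:191098164-191098463: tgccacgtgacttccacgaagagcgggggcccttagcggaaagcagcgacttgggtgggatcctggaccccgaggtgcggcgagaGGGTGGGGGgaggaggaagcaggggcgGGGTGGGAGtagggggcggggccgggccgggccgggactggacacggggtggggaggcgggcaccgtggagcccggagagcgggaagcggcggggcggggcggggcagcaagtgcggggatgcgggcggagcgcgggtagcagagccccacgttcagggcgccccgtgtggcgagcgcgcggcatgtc

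Of the 36 STAT6 peaks within 50 kb of the 3 genes in the C57 24 h list, 9 (25%) held the STAT6 motif, which was in 12.3% of 39527 peaks of the whole list. The AP-1 site was in 4 of the 36 (11.1%, against 22.7% of all), the EGR motif in 4 (11.1%, against 9.85%), the C/EBP motif in 4 (11.1%, against 15.2%), the PU.1 motif in 5 (13.9%, against 12.8%) and the interferon-stimulated response element in 2 (5.56%, against 4.28%). Among 32851 promoters of the same length, 14.3% held the EGR motif and 6.95% the STAT6 motif. The STAT6 peaks 17.2 and 25.1 kb downstream of Batf3 held none of these motifs, though H3K27ac rose in both regions. The peak 36.2 kb downstream of Batf3, where H3K27ac rose too, held an EGR motif only. A match describes letters and is not a measure of binding.

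All levels of marks and Pol II below are tags in a window of 1000 bp, scaled by the authors to a library of 10000000 tags (normalized tags), so windows can be compared with each other. The libraries held 4691644 to 29050468 tags, and 1 normalized tag stood for 0.469 to 2.905 reads. Differences are on the log2(normalized tags + 1) scale with their standard error (SE), from limma across all regions of the table with Benjamini-Hochberg adjustment, and a region is said to have risen or fallen when its adjusted p was under 0.05. In bulk cells, a mark gained by more of the cells and a mark gained more strongly in each cell cannot be told apart. The labelled cell type was checked against markers, and a start region was listed in C57 for 8 of 8 macrophage, 0 of 5 T cell and 2 of 6 dendritic cell markers. Summed start-region H3K27ac of the macrophage markers was 4663 to 4894 tags at basal and 2011 to 2080 at 24 h in C57, and of the dendritic cell markers 2.04 to 4.99 and 5.25 to 6.79. The B cell markers with a listed region (2 of 5) summed to 86.2 to 95.6 and 31.4 to 57.8 tags, and those of neutrophils (1 of 5) to 2.14 to 30.5 and 3.28 to 13.6. Those of mast cells (1 of 3) summed to 2.04 to 5.70 and 2.55 to 2.63, and those of fibroblasts (2 of 4) to 0.71 to 3.39 and 4.25 to 7.87. The part of mixed cells in the results was not tested. The share of H3K27ac tags that fell in the listed regions was 48.4 to 65.4% in basal libraries and 28.7 to 57.1% in 24 h libraries, and at 24 h it was 43.2 to 57.1% in replicate 1 and 28.7 to 42.0% in replicate 2 over the strains. Over all 29462 regions, the median H3K27ac difference at 24 h was -0.31 on the log2 scale under this scaling, while that of Pol II was 0.02.

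Irf4 gained H3K27ac and Pol II at its start and at an element 46.7 kb upstream, in intron 4 of Dusp22. The start region, centred 17 bp downstream of the GENCODE start, held H3K27ac of 11.5 and 17.1 tags at basal and 44.1 and 53.8 at 24 h in C57, 14 and 29.8 against 85.1 and 52.4 in BALB, and 11.6 and 22.2 against 47.0 and 54.6 in NOD. PWK held 49.8 and 52.5 against 37 and 91.6, and SPRET 11.1 and 24.4 against 120 and 68.9. Both 24 h libraries stood above both basal libraries in 4 of 5 strains, and in PWK the 24 h libraries lay on either side of the basal ones. Averaged over the strains the start rose by 1.51 on the log2 scale (SE 0.24, limma adjusted p = 9.1e-05). At the element 46.7 kb upstream, H3K27ac was 8.14 and 21.4 tags at basal and 87.4 and 99.1 at 24 h in C57, 23.5 and 36.9 against 172 and 61.9 in BALB, and 4.99 and 11.9 against 63.6 and 87.2 in NOD. PWK held 8.58 and 54.8 against 78.8 and 157, and SPRET 47.0 and 64.5 against 340 and 134. The groups did not overlap in any of the 5 strains, and the average difference was 2.36 (SE 0.32, limma adjusted p = 1.9e-05), a 4.43-fold ratio of the mean values plus 1.

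Pol II over Irf4 followed at the start and at the end of the gene. At the start it was 25.6, 23.3, 29.5 and 34.4 tags at basal and 85.4, 75.5 and 85.9 at 24 h in C57, 17.2, 43.3 and 36.1 against 117 and 154 in BALB, and 14.3 and 24.6 against 68.4 and 78.3 in NOD. PWK held 36, 67.8 and 62.1 against 51.8, 151 and 162, and SPRET 19.4, 36.5 and 20.0 against 198, 119 and 84.0. Only PWK had a 24 h library, at 51.8, within the range of its basal libraries. The average difference was 1.78 (SE 0.19, limma adjusted p = 7.9e-08). In the region 17.8 kb downstream, where the transcript ends, Pol II ran from 2.90 to 30.1 tags (median 10.9) at basal and from 20.1 to 70.1 (median 53.9) at 24 h, with a difference of 1.86 (SE 0.23, limma adjusted p = 6.9e-07). H3K27ac in that same region was 11.9 to 38.2 tags at basal and 9.69 to 29.4 at 24 h, below in every strain, and fell by 0.65 on the log2 scale (SE 0.21, limma adjusted p = 0.021). That fall lost its call without NOD 24 h replicate 2 (adjusted p = 0.056) or PWK 24 h replicate 1 (0.051), under median-ratio scaling (-0.33, adjusted p = 0.23) and in edgeR (0.20) and DESeq2 (0.28). Pol II also rose at the element 46.7 kb upstream (1.15, SE 0.24, limma adjusted p = 0.0011) and 10.6 kb upstream (0.82, SE 0.23, limma adjusted p = 0.012).

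The promoter mark H3K4me3 was already present at the Irf4 start before IL-4. It was 104 and 151 tags at basal and 167 and 247 at 24 h in C57, 102 and 159 against 228 and 247 in BALB, and 53.5 and 109 against 107 and 168 in NOD. PWK held 128 and 252 against 104 and 255, and SPRET 62.9 and 138 against 279 and 200. The average difference was 0.72 (SE 0.18, limma adjusted p = 0.0086), with groups that did not overlap in C57, BALB and SPRET. The other Irf4 regions shared by the strains did not pass for H3K27ac. At 10.6 kb upstream the levels were 13.2 to 52.5 tags at basal and 26.9 to 80.2 at 24 h (0.57, SE 0.22, limma adjusted p = 0.051), and 37.1 kb downstream the difference was -0.23 (adjusted p = 0.44).

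An element 34.4 to 34.5 kb upstream of Irf4, absent from the PWK table and so outside the fit over all strains, had the largest H3K27ac difference near this gene in each of the 4 tables that list it. It held 7.46 and 10.7 tags at basal and 56.9 and 154 at 24 h in C57, 4.41 and 8.94 against 97.9 and 92.4 in BALB, 5.82 and 15.1 against 81.0 and 126 in NOD, and 8.55 and 7.90 against 220 and 140 in SPRET. Fitted within each strain's own table with 2 libraries a condition, the difference was 3.25 in C57 (SE 0.60, limma adjusted p = 0.11), 3.71 in BALB (SE 0.57, 7.3e-08), 3.28 in NOD (SE 0.61, 0.10) and 4.26 in SPRET (SE 0.40, 0.00018). H3K4me3 there was 0 to 5.55 tags in every library of these strains, against 53.5 to 279 tags at the start. The region 38.9 to 39.0 kb downstream of Irf4, absent from the SPRET table, held H3K27ac of 9.50 and 10.7 tags at basal and 38.2 and 66.3 at 24 h in C57, and 8.08 and 13.1 against 51.2 and 31 in BALB. NOD held 22.4 and 9.53 against 36.9 and 50.7, and PWK 17.2 and 39.2 against 35.7 and 107. It passed in the table of BALB (1.85, SE 0.56, limma adjusted p = 0.045) and not in those of C57 (0.12), NOD (0.36) and PWK (0.49). Of all regions in these single tables, 0 passed for H3K27ac in C57, 1219 in BALB, 39 in NOD, 322 in PWK and 649 in SPRET. The adjusted p-values thus depended on the table as a whole and do not rank the strains at an element.

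**Figure D1:**
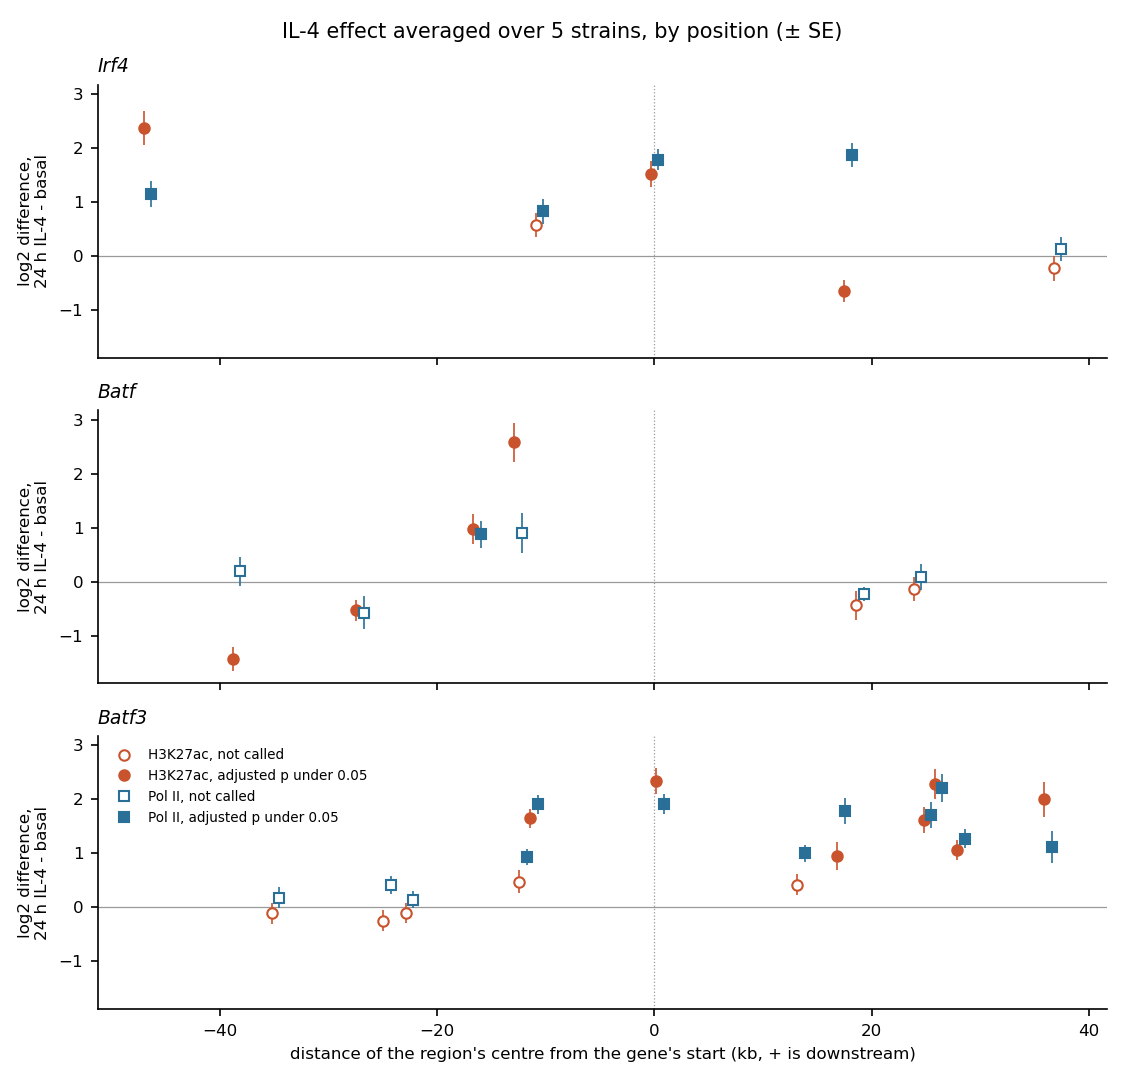
Average log2 difference of H3K27ac (circles) and Pol II (squares) at 24 h against basal over 5 strains, with SE, against distance from the start of Irf4, Batf or Batf3 for the 23 regions shared by the strains, filled where the limma adjusted p was under 0.05. The Irf4 start stands at 1.51 and 1.78, the Batf region 18.9 kb downstream at -0.44 and -0.23, and the Batf3 start at 2.33 and 1.91.

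Around Batf, elements nearer upstream gained H3K27ac and the element 38.5 kb upstream lost it. The strongly acetylated part of the gene body did not pass the test. The element 12.5 kb upstream held H3K27ac of 3.39 and 7.84 tags at basal and 34.8 and 62.4 at 24 h in C57, 5.88 and 5.96 against 51.2 and 35.2 in BALB, and 4.99 and 5.56 against 31.8 and 67.0 in NOD. PWK held 0 and 13.3 against 16.8 and 47.7, and SPRET 7.69 and 12.5 against 30.0 and 25.9. Every 24 h library stood above every basal library of its strain in 5 of 5 strains, and the average difference was 2.57 (SE 0.37, limma adjusted p = 3.3e-05), a 5.35-fold ratio of the mean values plus 1. Its neighbour 16.4 kb upstream ran from 6.26 to 53.9 tags (median 13.4) at basal and from 11 to 95.2 (median 30.4) at 24 h, and rose by 0.97 (SE 0.27, limma adjusted p = 0.0089). The groups did not overlap in 3 of 5 strains.

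The element 38.5 kb upstream of Batf went the other way. H3K27ac there was 19 and 37.1 tags at basal and 5.94 and 9.84 at 24 h in C57, 41.9 and 26.8 against 13.6 and 7.62 in BALB, and 93.9 and 52.4 against 31.1 and 16.9 in NOD. PWK held 146 and 87.7 against 44.5 and 31.5, and SPRET 77.8 and 71.1 against 40.5 and 48.5. Every 24 h library was below every basal library of its strain, and the average difference was -1.43 (SE 0.22, limma adjusted p = 7.4e-05). The region 27.1 kb upstream fell by 0.53 on the log2 scale (SE 0.20, limma adjusted p = 0.041). The call was lost without any one of 14 of the 20 libraries (adjusted p = 0.054 to 0.098), with median-ratio scaling (0.39), in edgeR (0.32) and in DESeq2 (0.40).

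The region 18.9 kb downstream of the Batf start, in intron 2 of the gene, had the highest median basal H3K27ac of the 23 shared regions. It held 248 to 791 tags (median 415) at basal and 161 to 512 (median 328) at 24 h, and its difference was -0.44 (SE 0.27, limma adjusted p = 0.21). Pol II there was 265 to 532 tags at basal and 224 to 418 at 24 h (-0.23, limma adjusted p = 0.28). The region 24.2 kb downstream had an H3K27ac difference of -0.14 (adjusted p = 0.66). Of the Batf regions, only that 16.4 kb upstream rose in Pol II (0.87, SE 0.26, limma adjusted p = 0.019), and the call was lost without BALB 24 h replicate 1 (0.061), NOD 24 h replicate 1 (0.066) or NOD basal replicate 2 (0.072). At the element 12.5 kb upstream Pol II was sparse, at 0 to 6.77 tags at basal and 0 to 9.61 at 24 h (0.89, SE 0.37, adjusted p = 0.11). The start of Batf was not listed in all strains. In C57 its H3K27ac was 37.3 and 8.56 tags at basal and 43.3 and 1.97 at 24 h, Pol II was 80.5, 64.2, 11.8 and 21.3 against 48.0, 113 and 18, and H3K4me3 was 237 and 181 against 219 and 158. The conditions overlapped in all 3 measures.

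Batf3 gained H3K27ac and Pol II at its start and at elements on both sides. The start region was centred 0.5 kb downstream of the GENCODE start and thus at the RefSeq start. H3K27ac there was 13.6 and 35.6 tags at basal and 138 and 140 at 24 h in C57, 23.5 and 31 against 203 and 121 in BALB, and 17.5 and 15.1 against 76.7 and 104 in NOD. PWK held 17.2 and 21.9 against 57.9 and 109, and SPRET 29.1 and 95.5 against 284 and 218. The conditions did not overlap in any strain, and the average difference was 2.33 (SE 0.24, limma adjusted p = 9.4e-07). The element 11.1 kb upstream held 111 and 105 tags at basal and 290 and 264 at 24 h in C57, 93.3 and 72.7 against 382 and 183 in BALB, and 91.4 and 101 against 287 and 262 in NOD. PWK held 49.8 and 63.4 against 205 and 171, and SPRET 71.8 and 121 against 413 and 332. It was the higher of the pair at basal and also separated the conditions in every strain, with a difference of 1.65 (SE 0.18, limma adjusted p = 2e-06).

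Downstream of Batf3, H3K27ac rose at 17.2 kb (0.95, SE 0.26, limma adjusted p = 0.0082), 25.1 kb (1.61, SE 0.24, 5.9e-05), 26.2 kb (2.29, SE 0.28, 6.9e-06), 28.2 kb (1.07, SE 0.18, 0.00018) and 36.2 kb (2.00, SE 0.33, 0.00014). The region 26.2 kb downstream went from 12.2 to 62.6 tags (median 26.2) to 71.4 to 257 (median 126), without overlap in any strain. The 3 distal regions with the highest H3K27ac around the gene did not pass. At 12.1 kb upstream it was 150 to 396 tags at basal and 211 to 542 at 24 h (0.48, adjusted p = 0.075), at 24.6 kb upstream 137 to 324 against 139 to 305 (-0.24, 0.35) and at 13.5 kb downstream 101 to 280 against 159 to 335 (0.42, 0.097). The region 34.9 kb upstream, at the starts of Tatdn3 and Nsl1, had a difference of -0.11 (adjusted p = 0.68).

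Pol II rose with H3K27ac around Batf3. At the start it was 16.9, 30.5, 20.9 and 16.2 tags at basal and 52.0, 81.9 and 96.2 at 24 h in C57, 15.3, 20.8 and 10.9 against 102 and 124 in BALB, and 16.2 and 25.3 against 53.1 and 106 in NOD. PWK held 17.6, 26.6 and 22 against 27.3, 73.3 and 106, and SPRET 28.1, 46.4 and 36.5 against 121, 109 and 129. Every 24 h library was above every basal library of its strain, PWK by the narrowest margin, and the average difference was 1.91 (SE 0.19, limma adjusted p = 1.5e-08). The same held 11.1 kb upstream (1.91, SE 0.17, limma adjusted p = 2.8e-09), 12.1 kb upstream (0.94, SE 0.14, 2.2e-05), 26.2 kb downstream (2.21, SE 0.26, 2.4e-07) and 28.2 kb downstream (1.27). Pol II also rose 13.5, 17.2, 25.1 and 36.2 kb downstream, by 1.00, 1.79, 1.71 and 1.12. H3K4me3 at the Batf3 start was 202 to 492 tags at basal and 277 to 552 at 24 h (0.41, SE 0.13, limma adjusted p = 0.033). It rose too 11.1 kb upstream (0.77, adjusted p = 0.036) and 26.2 kb downstream (0.99, 0.026). These 3 H3K4me3 calls were lost without any one of 9, 11 and 5 of the 20 libraries (adjusted p = 0.052 to 0.080, 0.053 to 0.10 and 0.053 to 0.073). Without C57 basal replicate 1, for example, the start had an adjusted p of 0.077.

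The element 4.1 to 4.5 kb upstream of Batf3, listed in 3 strain tables and so outside the fit over the strains, was nearly without H3K27ac at basal. It held 2.04 and 2.85 tags at basal and 45.0 and 132 at 24 h in C57, 0.73 and 4.17 against 61.0 and 71.9 in BALB, and 4.99 and 6.35 against 31.1 and 94.6 in NOD. In the tables of the single strains the difference was 4.51 in C57 (SE 0.65, limma adjusted p = 0.11), 4.49 in BALB (SE 0.56, 2.4e-12) and 3.06 in NOD (SE 0.66, 0.14). As above, these adjusted p-values do not rank the strains, since 0 of all regions passed in C57, 1219 in BALB and 39 in NOD. H3K4me3 there was 0 to 7.68 tags in these libraries.

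**Figure D2:**
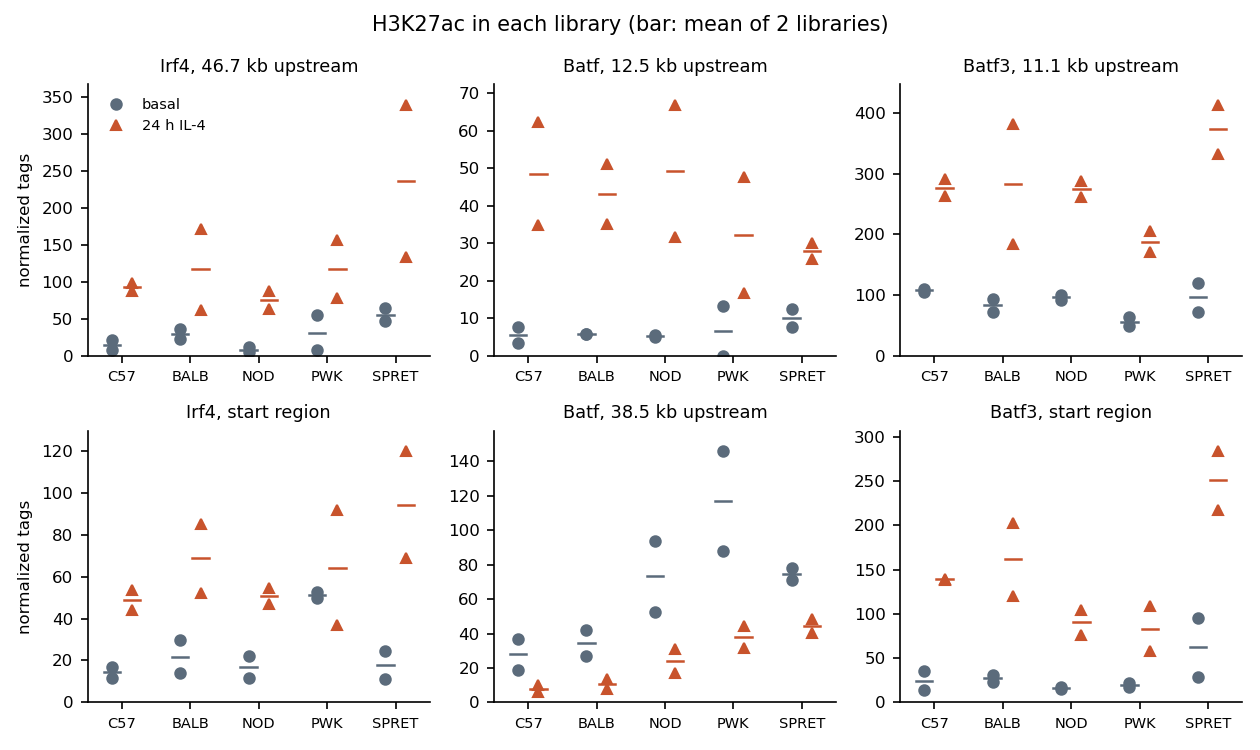
H3K27ac in normalized tags per 1000 bp at 6 regions of Irf4, Batf and Batf3, each point 1 library at basal or 24 h of IL-4 in 1 of 5 strains and each bar the mean of 2. The 24 h points lie above the basal points in every strain at the Batf3 start (57.9 to 284 against 13.6 to 95.5 tags over all strains) and below them at the Batf region 38.5 kb upstream.

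Over the 23 shared regions, H3K27ac rose at 11 and fell at 3, with a median difference of 0.57 against -0.31 over all regions. Over all 29462 regions 7.29% rose and 28.2% fell. Pol II rose at 14 of 23 and fell at 0, with a median difference of 0.94 against 0.02, while 7.5% of all regions rose and 7.2% fell. H3K4me3 rose at 4 of 23 and fell at 0, against 3.98% and 10.0% of all regions. Every 24 h library exceeded every basal library of its strain, in 5 of 5 strains, at 7 of 23 regions for H3K27ac (2.2% of all) and 5 of 23 for Pol II (0.886% of all), and lay below at 2 of 23 for H3K27ac (8.43% of all). The 7 were the Irf4 element 46.7 kb upstream, the Batf element 12.5 kb upstream, and the Batf3 start with the regions 11.1 kb upstream and 25.1, 26.2 and 28.2 kb downstream. Regions of 1 gene lie close together and are not independent. Under median-ratio scaling, which sets the median of all regions near 0, the genome-wide split of H3K27ac calls moved from 2149 up and 8306 down to 4118 up and 3864 down.

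H3K4me2 went mostly down under this scaling, as it did over all regions. It passed at 16 of the 23 regions, 2 up and 14 down, against 1.76% up and 72.2% down of all. Its median difference was -0.46 against -0.53 over all regions. The 2 that rose were 36.2 kb downstream of Batf3 (0.92, SE 0.21, limma adjusted p = 0.00043) and 12.5 kb upstream of Batf (0.47, SE 0.20, 0.026), while the starts of Batf3 and Irf4 had differences of -1.05 and -0.64. Only 5 of the 23 passed under median-ratio scaling, in edgeR or in DESeq2. With median-ratio scaling, the H3K4me2 calls over all regions went from 519 up and 21262 down to 1541 up and 272 down. Whether H3K4me2 fell at these regions apart from the shift of the whole table was not tested. The share of H3K4me2 tags in listed regions was 25.2 to 37.5% at basal and 14.9 to 33.4% at 24 h.

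Tested strain by strain, with 2 libraries a condition for H3K27ac, 12 region-by-strain differences passed, 7 in C57, 2 in BALB, 2 in NOD, 0 in PWK and 1 in SPRET, where 2.15% of all passed. The C57 calls included the element 46.7 kb upstream of Irf4 (2.72, limma adjusted p = 0.028), that 12.5 kb upstream of Batf (2.93, 0.037) and the Batf3 start (2.60, 0.0090). All 12 were lost without at least 1 library, the Batf3 start in C57 without C57 24 h replicate 1 (adjusted p = 0.064) or basal replicate 1 (0.083). For Pol II 18 passed, 6 in C57, 4 in BALB, 0 in NOD, 3 in PWK and 5 in SPRET, against 1.04% of all, and for H3K4me2 1 (0.107% of all) and for H3K4me3 0 (0.118% of all). Replicate numbers paired the H3K27ac, Pol II and H3K4me2 libraries across groups by the correlation of their deviations, and with the replicate number as a block 56 H3K27ac, 48 Pol II and 0 H3K4me2 differences passed. In the blocked fit of H3K27ac 5 residual degrees of freedom remained and the prior degrees of freedom were infinite, so that each region took its spread from the trend over all regions. The same held for the fit of H3K4me2 over the strains without the block, where the prior degrees of freedom were infinite too.

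A test of whether the IL-4 effect differed between the strains passed at 0 of 23 regions for H3K27ac, Pol II, H3K4me2 and H3K4me3, against 0.0%, 0.0%, 0.0% and 0.00339% of all. With the replicate block, the H3K27ac effect differed between the strains at the Irf4 start (adjusted p = 0.037) and 10.6 kb upstream (0.0082). The difference at the Irf4 start was 0.19 in PWK (SE 0.53) and 2.39 in SPRET (SE 0.53) without the block. The block also added 4 calls to the average H3K27ac effect, at Irf4 10.6 kb upstream (adjusted p = 0.0012), Batf3 12.1 kb upstream (0.0064) and 13.5 kb downstream (0.014) and Batf 18.9 kb downstream (0.014). It added 3 to that of Pol II, among them Batf 12.5 kb upstream (0.0022).

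In C57, the lists of all 5 factors held more peaks around the 3 genes at 24 h than at basal, and in the other strains those of STAT6 and PPARγ did. Within 50 kb of the 3 starts, STAT6 had 20 peaks at basal and 36 at 24 h, in lists of 30589 and 39537 peaks in all. EGR2, a zinc finger factor that IL-4 induces, had 7 and 24, in lists of 8437 and 29407. PPARγ, a lipid-activated nuclear receptor, had 2 and 28, in lists of 7627 and 39088, the macrophage factor PU.1 44 and 59, in lists of 85916 and 90308, and C/EBPβ 6 and 18, in lists of 18043 and 37499. The C57 lists grew as a whole as well. In the other strains STAT6 went from 7 to 19 peaks in BALB, 11 to 22 in NOD, 7 to 31 in PWK and 16 to 28 in SPRET, and PPARγ from 2 to 23, 6 to 30, 10 to 26 and 13 to 17 in that order. The whole STAT6 lists went from 11486 to 16432, 20653 to 20619, 14022 to 38679 and 28212 to 35742 peaks. Those of PPARγ went from 6524 to 23578, 12529 to 40426, 18402 to 46415 and 19684 to 18487. EGR2 went from 18 to 23, 20 to 19, 5 to 12 and 9 to 29, PU.1 from 47 to 50, 43 to 50, 47 to 41 and 47 to 39, and C/EBPβ from 4 to 18, 6 to 23, 16 to 21 and 16 to 14. EGR2 thus had fewer in NOD, PU.1 in PWK and SPRET, and C/EBPβ in SPRET, and each of those lists was also shorter as a whole at 24 h. In BALB, NOD, PWK and SPRET, whole EGR2 lists went from 28842 to 37104, 25341 to 16604, 6201 to 14919 and 12301 to 39458 peaks. Those of PU.1 went from 90248 to 82863, 84558 to 99217, 86707 to 73028 and 101317 to 80580. Those of C/EBPβ went from 13722 to 35329, 19060 to 45552, 32353 to 39849 and 31109 to 29217. With the C57 basal and 24 h lists cut to the length of the shorter, 24 h peaks near the 3 genes numbered 14 for EGR2, 9 for PPARγ and 11 for C/EBPβ, and a missing peak says only that none passed the authors' threshold there.

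At 3 of the 43 C57 regions a STAT6 peak lay within 500 bp of the centre in the 24 h lists of 5 of 5 strains and in no basal list, against 0.574% of all regions. These were the elements 34.5 kb upstream of Irf4, 12.5 kb upstream of Batf and 4.5 kb upstream of Batf3, 1 near each gene. Of the sequences printed above, that of the Batf element held a STAT6 motif and that of the Batf3 element an EGR motif only. The elements 46.7 kb upstream of Irf4 and 11.1 kb upstream of Batf3 had a STAT6 peak in 1 strain at basal and in 5 at 24 h. PPARγ showed the pattern of 5 strains at 24 h and none at basal at 4 of 43 regions (0.304% of all), 12.5 kb upstream of Batf and 12.1, 11.1 and 10.8 kb upstream of Batf3. The windows 11.1 and 10.8 kb upstream of Batf3 overlap and are not independent. The pattern was met at 0 of 43 regions for EGR2 (0.034% of all), PU.1 (0.0915%) and C/EBPβ (0.158%). EGR2 went from 1 strain to 5 at the element 46.7 kb upstream of Irf4, from 1 to 4 at the Irf4 start and from 2 to 4 at the elements 12.5 kb upstream of Batf and 4.5 kb upstream of Batf3. It had a peak in 5 strains in both conditions at the Batf3 start and 18.9 kb downstream of Batf. PU.1 had no peak in any strain 4.5 kb upstream of Batf3.

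**Figure D3:**
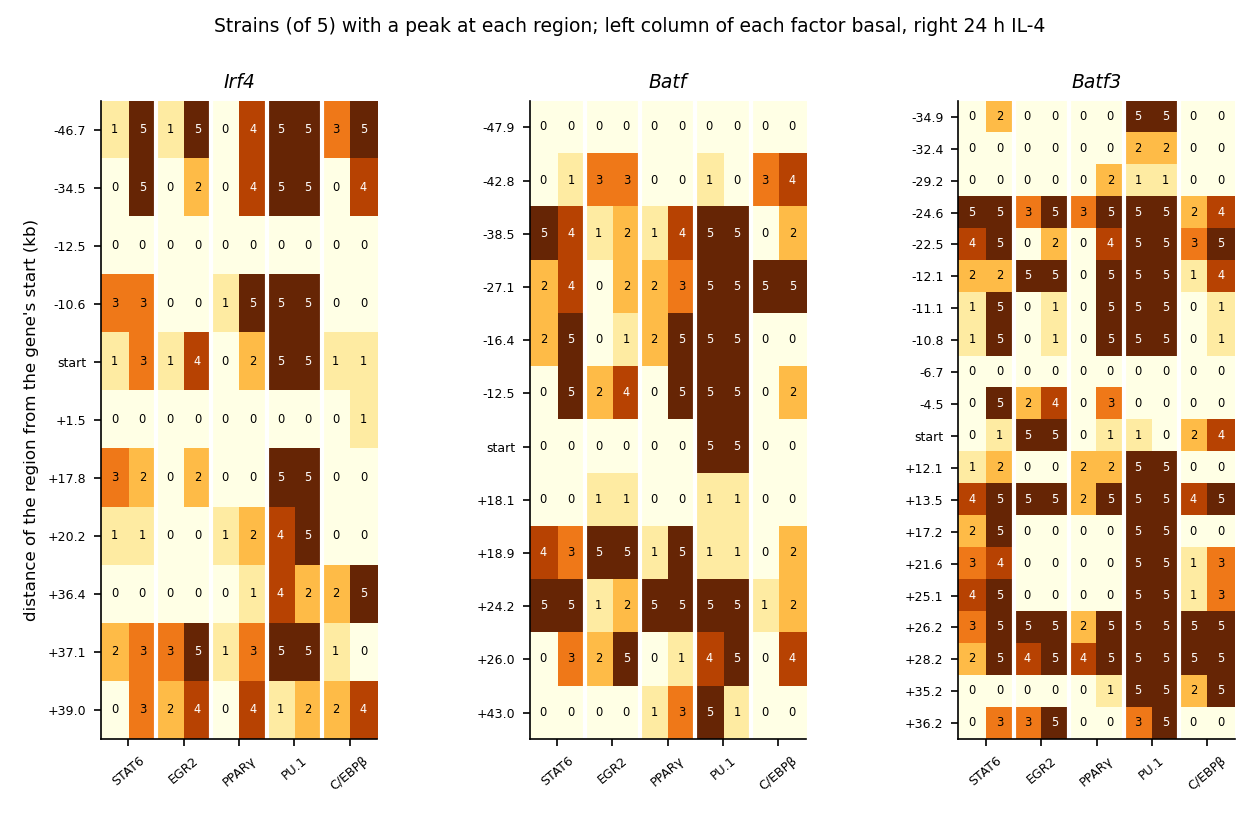
Number of strains of 5 with a peak of STAT6, EGR2, PPARγ, PU.1 or C/EBPβ within 500 bp of each region of the 3 genes, at basal (left of each cell) and 24 h (right of each cell). STAT6 goes from 0 to 5 strains at 3 regions, 34.5 kb upstream of Irf4, 12.5 kb upstream of Batf and 4.5 kb upstream of Batf3.

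In the C57 lists over time, the STAT6 peaks at these 3 elements and 11.1 kb upstream of Batf3 were absent at basal and present at 1, 6 and 24 h, while those at the Irf4 and Batf3 starts were in the 24 h list only. EGR2 peaks were absent at basal and present from 1 h on at the Irf4 start, 46.7 kb upstream and 37.1 kb downstream of it, 12.5 kb upstream of Batf and 4.5 kb upstream of Batf3.

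The time course in C57 had 2 libraries of H3K27ac a time and the same basal and 24 h libraries as above. The first time at which an element passed the test varied. At the Batf3 element 4.1 kb upstream, H3K27ac was 2.04 and 3.57 tags at basal, 20.1 and 21 at 1 h, 42.4 and 51.7 at 6 h, and 39.9 and 114 at 24 h. It was above both basal libraries at each time, with differences of 2.53 (limma adjusted p = 0.021), 3.68 (0.0024) and 4.20 (0.0015). At the Irf4 element 34.4 kb upstream the levels were 7.46 and 10.7 at basal, 37.1 and 31.7 at 1 h, 53.9 and 38.3 at 6 h, and 55.2 and 156 at 24 h, with differences of 1.83 (adjusted p = 0.056), 2.22 (0.036) and 3.24 (0.0088). By contrast in values, the Batf element 12.6 kb upstream held 3.39 and 7.84 tags at basal, 4.64 and 8.26 at 1 h, 16.2 and 29.8 at 6 h, and 34.8 and 66.3 at 24 h, and passed only at 24 h (2.98, limma adjusted p = 0.022). Whether the timing differed between elements was not tested.

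The Irf4 element 46.7 kb upstream held 8.14 and 20.7, 20.1 and 31.3, 40.04 and 47.5, and 85.7 and 99.8 tags in that order, passing at 24 h (2.73, limma adjusted p = 0.023). The Irf4 start held 11.5 and 17.1, 13.9 and 23.1, 43.1 and 30.4, and 44.1 and 53.8 tags (1.72 at 24 h, adjusted p = 0.13). The Batf3 start, centred here 527 bp downstream, held 13.6 and 35.6, 93.5 and 36.5, 83.9 and 99.2, and 140 and 140 tags (2.61 at 24 h, limma adjusted p = 0.037), and 1 of the 1 h libraries was close to the higher basal library. The region 0.5 kb upstream of Batf3, at the GENCODE start, held 4.07 and 8.56, 13.9 and 20.3, 23.1 and 24.3, and 45.0 and 69.6 tags, passing at 24 h (3.03, limma adjusted p = 0.012). The Batf element 38.5 kb upstream went from 19.7 and 37.1 to 6.96 and 3.79 at 1 h (-2.18, limma adjusted p = 0.034), 9.24 and 9.74 at 6 h, and 5.94 and 9.84 at 24 h, below both basal libraries throughout.

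Of the 54 regions, H3K27ac rose at 3 at 1 h, 3 at 6 h and 9 at 24 h, against 1.37%, 2.67% and 1.13% of all regions. It fell at 1, 1 and 0, against 8.36%, 2.46% and 0.327% of all. Of these 17 calls, 15 were lost without at least 1 library, and those kept were the Batf3 elements 4.1 and 4.5 kb upstream at 24 h. The Irf4 element 34.4 kb upstream at 24 h was lost without 24 h replicate 2 (adjusted p = 0.13). The Batf3 element 4.1 kb upstream at 6 h was lost without 6 h replicate 1 (0.056) or 2 (0.067), and the Batf3 region 0.5 kb upstream at 24 h without basal replicate 1 (0.077) or 24 h replicate 2 (0.10). The Irf4 element 46.7 kb upstream at 24 h was lost without basal replicate 1 (0.16), either 6 h library (0.062 and 0.064) or either 24 h library (0.075 and 0.12). The fall 38.5 kb upstream of Batf at 1 h was lost under median-ratio scaling (0.17). The second 1 h library had 20.5% of its tags in the listed regions and the first 44.0%, against 63.8 to 69.7% at basal, 50.2 to 51.0% at 6 h and 41.2 to 46.4% at 24 h. Its part in the 1 h values was not tested.

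Pol II in the time course, with 4 basal libraries, 1 at 1 h, 2 at 6 h and 3 at 24 h, rose at 1, 1 and 13 of the 54 regions, against 0.0462%, 0.428% and 0.503% of all. It fell at 0, where 0.0449%, 0.137% and 0.174% of all fell. All but 1 of these 15 calls were lost without at least 1 library. The one kept was 0.5 kb upstream of Batf3 at 24 h, where Pol II was 4.99, 7.22, 4.82 and 6.08 tags at basal, 40.6 at 1 h, 32.3 and 30.2 at 6 h, and 44.7, 74.6 and 78.2 at 24 h (3.27, limma adjusted p = 0.00040). At the element 4.1 kb upstream Pol II was 6.86, 11.2, 9.11 and 5.06 at basal, 69.6 at 1 h, 31.8 and 32.2 at 6 h, and 37.4, 42.3 and 30.8 at 24 h, the single 1 h library being the highest. At the starts, Pol II at 24 h rose by 1.81 for Batf3 (limma adjusted p = 0.032) and 1.52 for Irf4 (0.040).

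**Figure D4:**
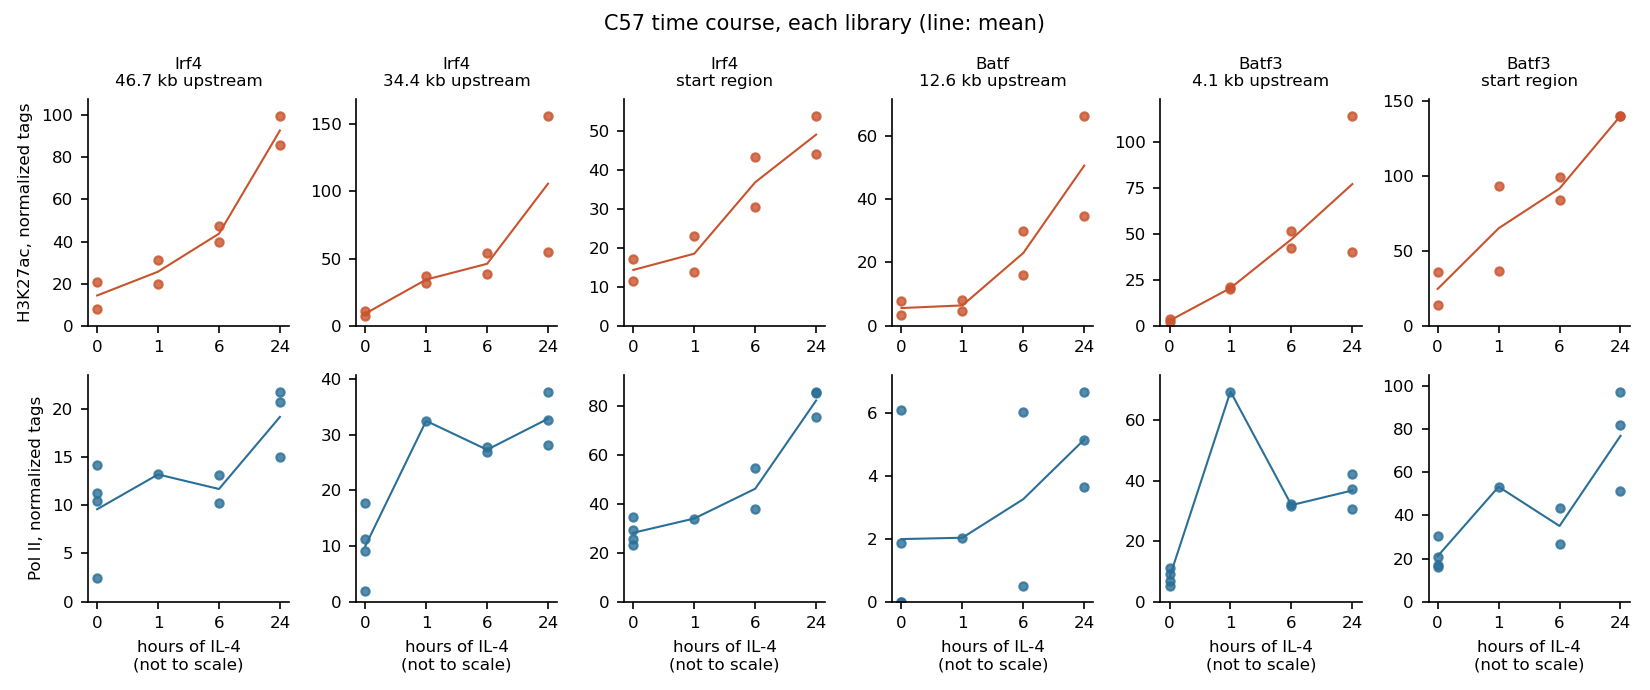
H3K27ac (upper row) and Pol II (lower row) in normalized tags per 1000 bp at 6 regions of Irf4, Batf and Batf3 in C57 at basal and 1, 6 and 24 h of IL-4, each point 1 library, the line the mean, with the times not spaced to scale. H3K27ac 4.1 kb upstream of Batf3 is 20.1 and 21 tags at 1 h against 2.04 and 3.57 at basal, while 12.6 kb upstream of Batf it is 4.64 and 8.26 against 3.39 and 7.84.

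EGR2 tags at the 25 EGR2 sites near the 3 genes, in windows of 300 bp and with 2 libraries a time, differed from basal at 0 of 25 at 1, 6 or 24 h by limma, where 0.0%, 0.0% and 0.0% of all 30675 sites passed. Of all sites, 1085, 1169 and 1038 were below 0.05 before adjustment at the 3 times in limma, and edgeR gave 0, 2 and 0 calls. At the site 46.7 kb upstream of Irf4, EGR2 was 9.37 and 13.4 tags at basal, 25.3 and 81.0 at 1 h, 45.4 and 181 at 6 h, and 87.5 and 162 at 24 h (3.30 at 24 h, SE 0.78, limma adjusted p = 0.44). At the site 4.1 kb upstream of Batf3 it was 20.6 and 21.5, 23.5 and 52.1, 75.1 and 93.7, and 166 and 73.9 (2.34 at 24 h, adjusted p = 0.84). At the site 12.6 kb upstream of Batf it was 23.4 and 17.5, 37.9 and 47.3, 85.5 and 64.7, and 114 and 35.5. At the Irf4 start EGR2 was 21.5 and 14.8 at basal and 85.7 and 49.0 at 24 h. At each of these 4 sites both 24 h libraries were above both basal libraries. The share of all sites with that pattern was not counted. Over the 25 sites the median difference was 0.08 at 1 h, 1.17 at 6 h and 1.14 at 24 h. Over all 30675 sites it was -0.59, 0.17 and 0.66 in that order. Both 24 h libraries also held a larger share of their tags in the listed sites than either basal library. Whether EGR2 rose at the 25 sites apart from this shift of the whole table was not tested.

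The comparison of Egr2flfl and LyzMCreEgr2flfl cells asks what the loci look like in myeloid cells with recombined Egr2. It covers 9 sites, which the authors had chosen as EGR2 peaks induced at 24 h of IL-4, 4 near Irf4, 2 near Batf and 3 near Batf3. The study reports that Egr2 was deleted efficiently in macrophages from this cross. In the data used here, the only listed window at Egr2 itself, 3741 bp downstream of its start, does not check the deletion. The place of that window relative to the floxed part is not given in the sources used here. Its H3K27ac was 153 and 198 tags in Egr2flfl and 161 and 143 in LyzMCreEgr2flfl cells at 24 h. At 24 h, H3K27ac was lower in LyzMCreEgr2flfl cells at 3 of the 9 sites, 1 at each gene, where 23.2% of all 4677 sites were lower. The median difference was -0.60 at the 9 and -0.50 at all sites. With so few sites, neither the count nor the median sets these genes apart from all sites.

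At the Irf4 site 39.0 kb downstream H3K27ac was 49.2 and 76.4 tags in Egr2flfl and 20.8 and 16.8 in LyzMCreEgr2flfl cells at 24 h, and 13.6 and 20.4 against 7.02 and 4.48 at basal (-1.66 at 24 h, SE 0.39, limma adjusted p = 0.0059). At the Batf site 12.6 kb upstream it was 20.1 and 30.8 against 9.35 and 6.96 at 24 h, and 5.11 and 2.72 against 2.01 and 1.12 at basal (-1.51, SE 0.52, limma adjusted p = 0.045). At the Batf3 site 4.1 kb upstream it was 33.2 and 55.9 against 11.4 and 14.5 at 24 h, and 5.11 and 10.9 against 5.01 and 1.68 at basal (-1.67, SE 0.51, limma adjusted p = 0.026). At all 3 sites the genotypes did not overlap at 24 h, and they did not overlap at basal either. The share of all sites without such overlap was not counted. At basal 0 of the 9 sites passed, and the median difference was -0.39 at the 9 and -0.20 at all sites. The Batf and Batf3 calls were lost without any one of the 4 libraries at 24 h (adjusted p = 0.095 to 0.27 and 0.058 to 0.23), and the Irf4 call without Egr2flfl 24 h replicate 2 (0.11). Under median-ratio scaling the differences were -1.14 (adjusted p = 0.050), -1.004 (0.19) and -1.15 (0.13), and in DESeq2 the adjusted p were 0.078, 0.33 and 0.16. The site 11.1 kb upstream of Batf3 was then called higher in LyzMCreEgr2flfl cells, by 0.70 under median-ratio scaling (adjusted p = 0.023), 0.65 in edgeR (0.023) and 0.68 in DESeq2 (0.030).

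Other sites did not pass. H3K27ac 46.7 kb upstream of Irf4 was 47.2 and 73.9 tags in Egr2flfl and 22.9 and 37.1 in LyzMCreEgr2flfl cells at 24 h (-0.99, adjusted p = 0.085), and with a pseudocount of 5 it passed (-0.91, limma adjusted p = 0.049). At 34.4 kb upstream it was 58.3 and 81.6 against 36.4 and 55.7 (-0.60, adjusted p = 0.41). The remaining 4 had differences of -0.17 at Irf4 4.6 kb upstream, -0.23 at Batf 16.4 kb upstream, and 0.16 and 0.08 at Batf3 11.1 and 22.6 kb upstream. H3K27ac rose from basal to 24 h at 7 of 9 sites in Egr2flfl cells and at 7 of 9 in LyzMCreEgr2flfl cells, against 25.6% and 14.4% of all sites. At the Irf4 site 34.4 kb upstream that difference was 3.73 in Egr2flfl and 3.96 in LyzMCreEgr2flfl cells. The interaction of genotype with IL-4 passed at 0 of 9 sites for H3K27ac, against 0.0% of all, so that no difference in the response to IL-4 between the genotypes was shown.

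**Figure D5:**
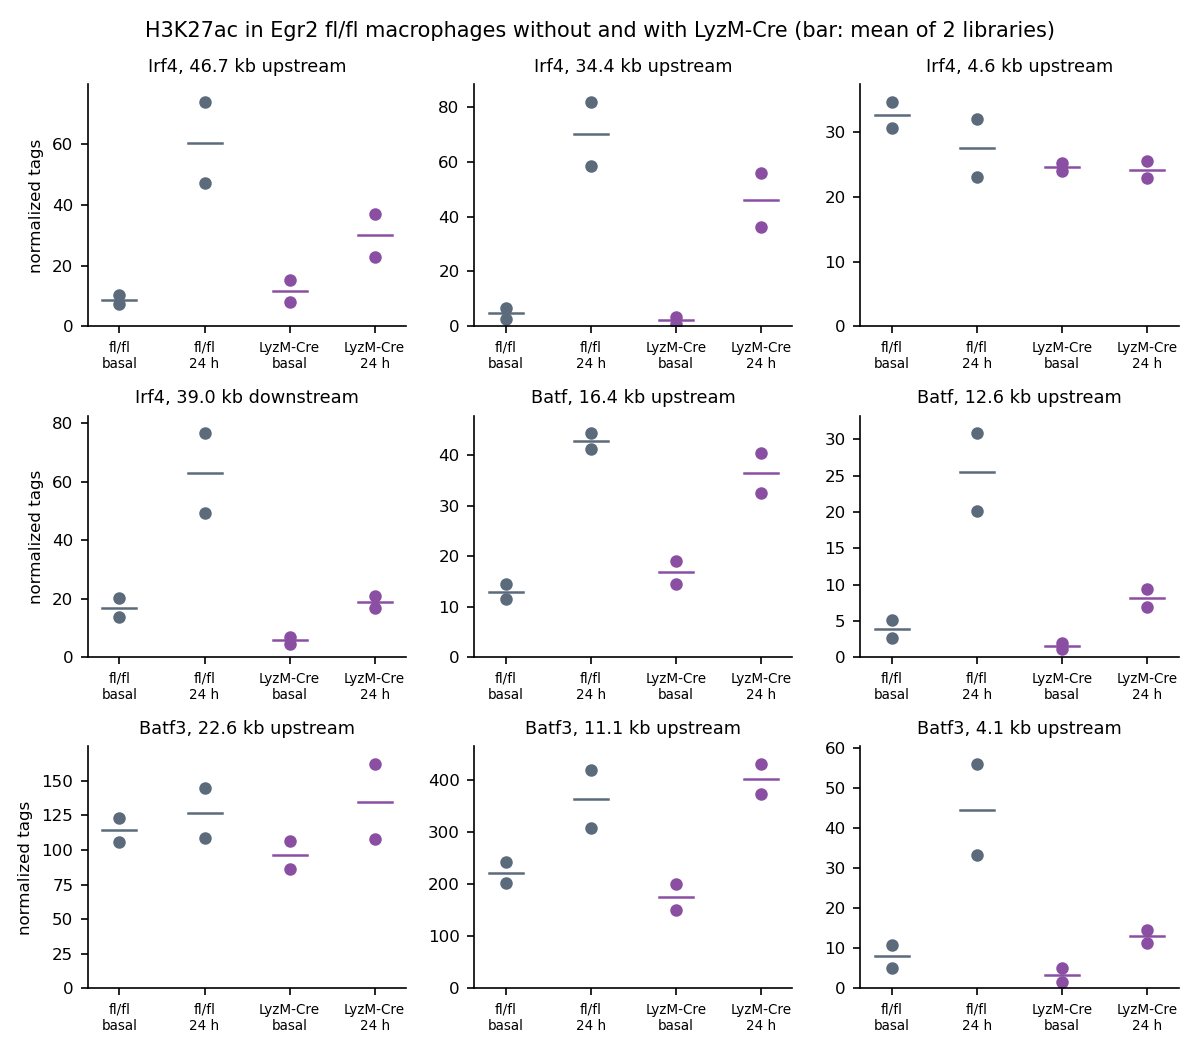
H3K27ac in normalized tags per 1000 bp at the 9 sites near Irf4, Batf and Batf3 in Egr2flfl and LyzMCreEgr2flfl cells at basal and 24 h, each point 1 library and each bar the mean of 2. At 24 h the genotypes differ in the test at the Irf4 site 39.0 kb downstream, the Batf site 12.6 kb upstream and the Batf3 site 4.1 kb upstream.

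Few of the 9 sites passed for H3K4me2 or PU.1 at 24 h. The Batf3 site 4.1 kb upstream was called lower in LyzMCreEgr2flfl cells for both. H3K4me2 there was 31.1 and 43.4 tags in Egr2flfl and 4.33 and 9.23 in LyzMCreEgr2flfl cells at 24 h, and 6.31 and 7.54 against 1.41 and 1.31 at basal (-2.36, SE 0.52, limma adjusted p = 0.00052). It was the 1 site of 9 that passed for H3K4me2, a share near the 8.94% of all. That call was lost without Egr2flfl 24 h replicate 2 (adjusted p = 0.073). In the genotype fits of H3K4me2 and C/EBPβ the prior degrees of freedom were infinite. Each site thus took its spread from the trend over all sites and not from its own libraries. PU.1 passed at 2 of 9 sites, against 9.36% of all. At the Batf3 site PU.1 was 13.7 and 11.1 tags in 300 bp in Egr2flfl and 0 and 2.52 in LyzMCreEgr2flfl cells at 24 h (-2.83, limma adjusted p = 0.019). At the site 12.6 kb upstream of Batf it was 132 and 128 against 72.4 and 59.6 (-0.97, SE 0.19, limma adjusted p = 0.0054). The PU.1 call at Batf3 was lost without either Egr2flfl library at 24 h or LyzMCreEgr2flfl 24 h replicate 1 (0.17 to 0.25), and that at Batf without either Egr2flfl library or LyzMCreEgr2flfl 24 h replicate 2 (0.051 to 0.16) and in DESeq2 (0.071).

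C/EBPβ passed at 1 of 9 sites, a share near the 8.25% of all, and this was the Irf4 site 39.0 kb downstream. Its tags were 64.7 and 69.9 in Egr2flfl and 3.39 and 9.65 in LyzMCreEgr2flfl cells at 24 h, and 9.12 and 22.9 against 2.18 and 8.25 at basal (-3.32, SE 0.88, limma adjusted p = 0.017). That call was lost without any one of the 4 libraries at 24 h (0.081 to 0.32) and under median-ratio scaling (0.15). With a pseudocount of 5 the site 46.7 kb upstream of Irf4 passed for C/EBPβ too (-1.90, limma adjusted p = 0.030). The median C/EBPβ difference of all 4677 sites was -1.14. STAT6 passed at 0 of 9 (0.0214% of all). It was 21.2 and 23 tags in Egr2flfl and 4.12 and 1.13 in LyzMCreEgr2flfl cells at 24 h 12.6 kb upstream of Batf (adjusted p = 0.12), and 13.7 and 15.9 against 1.03 and 1.13 at the Batf3 site 4.1 kb upstream (adjusted p = 0.15). With a pseudocount of 5 both passed, with differences of -1.86 (limma adjusted p = 0.0082) and -1.70 (0.0060). STAT6 rose with IL-4 at 5 of 9 sites in Egr2flfl cells (11.8% of all) and at 2 of 9 in LyzMCreEgr2flfl cells (1.2% of all). These counts depended on the scaling. With median-ratio scaling the calls were Irf4 46.7 kb upstream in Egr2flfl cells (limma adjusted p = 0.025) and Batf3 11.1 kb upstream in LyzMCreEgr2flfl cells (0.022). Over all sites the rises then went from 552 and 56 to 50 and 41. PPARγ passed at 0 of 9 (0.0% of all). The interaction passed at 0 of 9 sites for H3K4me2, STAT6, PPARγ, PU.1 and C/EBPβ too, against 0.0428%, 0.0%, 0.0%, 0.0% and 0.0% of all. Pol II had 1 library a group, so there was no test. At 24 h its value was lower in LyzMCreEgr2flfl cells at 4 of the 9 sites and higher at 5. It was 31.5 tags in Egr2flfl and 20.0 in LyzMCreEgr2flfl cells 4.1 kb upstream of Batf3 (10.0 and 16.3 at basal), 59.6 and 77.2 at 11.1 kb and 18.7 and 22.6 at 22.6 kb upstream. Near Batf it was 5.10 and 0 at 12.6 kb and 38.3 and 47.9 at 16.4 kb upstream. Near Irf4 it was 11.1 and 9.32 at 46.7 kb, 19.6 and 31.9 at 34.4 kb and 0 and 2.66 at 4.6 kb upstream, and 1.70 and 0 at 39.0 kb downstream.

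At the starts of related and partner genes no gain of H3K27ac passed the test. Of 20 genes for other interferon regulatory factors, AP-1 proteins and partners, 15 had a start region shared by the strains. H3K27ac rose at 0 and fell at 6, among them Irf8 (-0.81), a lineage factor of macrophages and dendritic cells, Irf7 (-0.97), Irf9 (-0.80) and Spi1 (-0.65), which encodes PU.1. Their median H3K27ac difference was -0.42, and the falls stand against a median of -0.31 for all regions under this scaling. Pol II fell at 2, Maf and Irf8. Of 19 genes of IL-4 signalling and alternative activation, 11 had such a region, and H3K27ac rose at 4 and fell at 2. The 4 were Cish (2.66) and Socs1 (1.55), which encode feedback inhibitors of cytokine signalling, Egr2 (1.94) and Pparg (0.72), while Il4ra, the IL-4 receptor gene, and Stat6 had -0.85 and -0.76. Pol II rose at 5 of these 11 and fell at 0.

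By the Pearson correlation of the log2 H3K27ac means of the start region over the 10 strain-by-condition groups, the genes of 8581 most like Irf4 were Trpm4 (0.919), Itgax (0.909) and Slc4a11 (0.909), and those most like Batf3 were Dnah1 (0.974), Atp6v0d2 (0.954) and Ptgs1 (0.931). The points share libraries and the values are a description. No such list could be made for Batf, whose start was not listed in all strains.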

How the data were processed

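ChIP-seq of 267 samples in 138 groups was deposited as 9 tag tables, covering 155 libraries, and as peak lists. Per the study's methods, reads were aligned by Bowtie2, each strain to its own genome, and shifted to mm10, and HOMER counted tags around accessible regions and called 200-bp peaks, kept by reproducibility between replicates. The deposited values are a signal: the authors scaled each library to 10000000 tags in windows of 1000 bp (marks and Pol II) or 300 bp (factors). Since 100% of 7268918 values were whole reads within 0.1 after multiplying back, reads were recovered for count tests. The deposited peak lists hold a score that was not compared. 4 value columns without a matching sample were not used. The sequence of 1 element described is not reported here.

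From these, log2(normalized tags + 1) was tested with limma 3.58.1 (trend) on R 4.3.3, over all regions of a table, with Benjamini-Hochberg adjustment. Strain tables were joined where region centres lay within 500 bp, and the fit over the strains had a term for each strain and condition. Alternatives were a pseudocount of 5, a filter of 16 tags (8 for factors and Pol II), median-ratio scaling, a replicate block, matching within 100 bp, each strain's own table, a window of 20 kb, a stricter peak threshold, each library left out, and edgeR 4.0.16 and DESeq2 1.42.0 on recovered reads. The members and lists were chosen with earlier results of these data known, and the gene lists follow an earlier analysis of the same files. Regions named were the starts, the 3 distal regions of each gene with the highest H3K27ac, those called on average (beyond 10, the 5 with the smallest p in each direction), every EGR2 and genotype site, and the 3 genes most alike. The regions 34.5 kb upstream and 38.9 kb downstream of Irf4 in single strains, 4.5 and 0.5 kb upstream of Batf3, and all others named were chosen after their values were seen.

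The correlation of same-numbered libraries' deviations from their group means, over 98 pairs, ran from -0.073 to 0.586. Where both groups held 2 libraries, replicates 1 and 2 gave the same value by construction, so many of the 98 repeat one another. Every pair was above 0.1 for H3K27ac (lowest 0.314), Pol II (0.128) and H3K4me2 (0.111) over the strains and for H3K4me2 over the genotypes (0.115), so the numbers were taken to pair those libraries. No pair of replicates was identical, and chi-square per degree of freedom between replicates was 1.41 to 20.0. Tested on simulated data, the fit of H3K27ac over the strains, on 29462 regions, recovered 96% of 2-fold and 100% of 4-fold changes, that of the 24 h time point, on 77955 regions, 8% and 83%, and that of the genotypes, on 4677 sites, 21% and 95%. The simulated reads had a fixed dispersion and no effect of replicate number or of the share of tags in regions. The rates hold for that setting only.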

Additional observations from a re-analysis of the deposited data

Results flagged for a closer look

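In C57 basal Pol II, a group of 4 libraries, 1 library stood far from the other 3 at 4 regions, 2 of them in both the strain and the time-course table and 2 in the time-course table alone. The tables hold the same basal libraries. The values that stood apart were 42.5 tags 28.2 kb downstream of Batf3 (in both tables), 4.05 tags 38.5 kb upstream of Batf (in both tables), 7.49 tags 47.9 kb upstream of Batf and 6.86 tags 14.4 kb downstream of Batf. Of 74 tests of a group at a region, 6 met this criterion, and chance gives about 1 in 20.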

How the results depend on the processing

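Under the alternatives, 453 summary counts stayed within 1.5 times and 116 moved, and for single regions 2069 values kept their direction and call, 393 lost the call and 0 changed direction. In the fits over the strains, the 12 region-by-strain H3K27ac calls became 21 with median-ratio scaling and 34 in DESeq2, the 18 of Pol II 29 in DESeq2, and the 16 average H3K4me2 calls 5 with median-ratio scaling, in edgeR and in DESeq2, while the 1 region-by-strain H3K4me2 call became 0 with a pseudocount of 5, median-ratio scaling, edgeR, DESeq2, matching within 100 bp and single tables. The 4 average H3K4me3 calls became 2 with a filter of 16 tags and 2 in DESeq2. In the time course, 17 H3K27ac calls became 28 with median-ratio scaling, 27 in edgeR and 40 in DESeq2, 15 of Pol II 23, 23 and 36, and 0 of EGR2 1 with a pseudocount of 5 and 3 in DESeq2. For the genotypes at 24 h, 3 H3K27ac calls became 1 with median-ratio scaling and 1 in DESeq2 (with both, Batf3 11.1 kb upstream, higher in LyzMCreEgr2flfl cells), 0 of STAT6 2 with a pseudocount of 5, 2 of PU.1 1 with a filter of 8 tags and 0 in DESeq2, and 1 of C/EBPβ 2 with a pseudocount of 5 and 0 with median-ratio scaling and in DESeq2. Peaks near the genes in C57 at 24 h fell from 36 to 17 for STAT6, 24 to 11 for EGR2, 28 to 11 for PPARγ, 59 to 25 for PU.1 and 18 to 4 for C/EBPβ with a window of 20 kb, and to 14 for EGR2, 9 for PPARγ and 11 for C/EBPβ with lists of equal length. Fewer regions tested follows from the filter and fewer bases from the window; the cause of the other shifts was not tested.

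With the replicate block, H3K27ac calls by strain became 56, its calls of a difference between strains 2, Pol II calls by strain 48, H3K4me2 calls by strain 0, average H3K4me3 calls 8, H3K4me3 calls by strain 6 and of a difference 1, time-course calls 42 for H3K27ac, 30 for Pol II and 2 for EGR2, and genotype calls at 24 h 2 for STAT6 and 3 for C/EBPβ. In the H3K4me3, time-course and other genotype fits, the numbers did not pair the libraries by the correlation used. With the block, H3K27ac 46.7 kb upstream of Irf4 was also called lower in LyzMCreEgr2flfl cells at 24 h (limma adjusted p = 0.047). The block moved no other count by over 1.5 times.

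Leaving out each library in turn gave 13 to 16 average H3K27ac calls, 5 to 15 by strain, 13 to 15 and 12 to 18 for Pol II, 14 to 18 and 0 to 28 for H3K4me2, and 1 to 7 average H3K4me3 calls. H3K4me2 calls by strain were 28 without BALB 24 h replicate 1, 12 without replicate 2 and 11 without C57 24 h replicate 1. Time-course calls were 4 to 30 for H3K27ac, 2 to 21 for Pol II and 0 to 4 for EGR2. Genotype calls at 24 h were 0 to 3 for H3K27ac, 0 to 1 for H3K4me2 and PPARγ, 0 to 2 for PU.1 and C/EBPβ, and the interaction was 0 to 1 for PPARγ. On simulated data the 24 h time-course fit of H3K27ac recovered 8% of 2-fold changes. DESeq2 was not run for differences between strains.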
